A study of Mus musculus with 36 samples.

Results

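The genes described here encode the nuclear part of the mitochondrial respiratory chain, the 5 enzyme complexes that carry electrons from NADH and succinate to oxygen and use the released energy to make ATP. Members were the array rows with exactly 1 annotated symbol beginning with Nduf (followed by a, b, c, s or v), Uqcr, Cox (followed by 4 to 8) or Atp5, or being Sdha, Sdhb, Sdhc or Sdhd. Where a symbol had several rows, the row with the highest mean was kept. This gave 89 members of 22180 named genes, chosen by symbol and not by any measured value. They were 34 genes of complex I, 8 complex I assembly factors (Ndufaf1 to Ndufaf8), 4 genes of complex II, 7 of complex III, 17 of complex IV, 17 of complex V and 2 pseudogenes.

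RNA from mouse CD4 T cells was hybridised to expression arrays in 36 samples, 3 in each of 12 groups. One genotype was the wild-type littermate (WT) and the other was labelled Trim28-KO (KO), lacking TRIM28, a co-repressor that zinc-finger proteins bring to DNA. Naive cells, enriched on magnets and then sorted by flow cytometry, were profiled as they were or after 72 h of stimulation through CD3 (antibody fixed to the plate) and CD28 (antibody in solution), in conditions called Th0, Th1, Th2, Th17 and Treg. Th0 is stimulation with no named lineage, and the other names are those of helper and regulatory T cell lineages. The labels gave no cytokines, no strain, age or sex of the mice, and no promoter or Cre line behind the deletion. Whether the 3 samples of each group stand for 3 mice was not given, so p-values measure the spread between these samples, which may be technical.

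Complex I (NADH dehydrogenase) and complex II (succinate dehydrogenase) feed electrons through ubiquinone to complex III (the cytochrome bc1 complex), cytochrome c and complex IV (cytochrome c oxidase), and complex V is the ATP synthase. Resting T cells live largely on oxidative phosphorylation, and on activation they enlarge their mitochondria and take up glycolysis as well. Several complex IV subunits exist as a widely expressed form and a form known from heart and skeletal muscle, lung or testis, each from its own gene.

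Values are log2 intensities, so a difference of 1 is a doubling of signal. A member was called higher or lower when limma's moderated test, fitted to all 36 samples, gave a Benjamini-Hochberg adjusted p under 0.05 over the 13082 genes tested. Tested genes had to exceed 5.26, the median of the whole table, in at least 3 samples. Of the members, 82 were tested and 76 of these lay above that level in all 36 samples. Cox7a1 passed only through WT Th1, WT Th17 and KO Th17 samples, so a difference involving those groups was built into its passing, and its values there are given as a description without a test, although the counts of calls hold it. Not passing were Ndufa4l2, Cox7b2, Cox8b, Cox8c, Atp5g1 and the pseudogenes Atp5c1-ps and Uqcrh-ps1. A further 10 rows, carrying Cox6c, Uqcr10, Ndufs6, Ndufb4 or Ndufb2 or another row of Ndufs1, Ndufs5 or Uqcrb, had more than 1 symbol and were left out. The mitochondrially encoded subunits were not analysed here. Ndufa4, counted with complex I by its name, is a subunit now placed in complex IV. Cyc1 (cytochrome c1), a subunit of complex III, does not match the symbols and is not among the members.

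The samples had the markers of their label. Cd4 lay between 10.45 and 11.62 and Cd3e between 11.56 and 12.57 in all 36 samples, whereas Ncr1 (NK cells, at most 4.93) and Csf1r (myeloid cells, at most 5.20) were low throughout. Other genes of these lists were not: Klrd1 reached 10.19 (Th17), Adgre1 10.32 (Th2), Itgam 7.87 (KO Treg) and Cst3 10.38. Of the CD8 T cell markers Cd8b1 lay between 6.18 and 8.84, highest in naive samples, and Cd8a between 4.32 and 6.5, highest in KO Treg samples. Trim28 lay between 9.21 and 9.99 in WT and between 5.51 and 7.86 in KO samples. KO Th0 sample 1 and KO Th1 sample 1 stood apart from their groups, and results that rest on them are given with and without them. In complex IV the median level of the 14 tested members was lowest in sample 3 of every KO group. In samples 1 to 3 it was 9.07, 9.15 and 8.13 for KO Th0 and 9.07, 9.36 and 8.32 for KO Th1. For KO Treg it was 9.29, 9.14 and 8.38. The part of these samples in the KO results was not tested beyond leaving out 1 sample at a time. The number of arrays, 3 a group, limits the precision.

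Promoter sequences are shown first because respiratory chain genes are known for shared promoter elements, among them sites for NRF1, ETS factors such as GABP, and YY1. The sequences are RefSeq's for GRCm38.p6, each printed 5′ to 3′ on the gene's own strand from 250 bases before the start to 30 bases after it. Capitals mark CGCATGCG, the core of the NRF1 site, and CCGGAAG, an ETS site, on either strand (the ETS site on the other strand reads CTTCCGG). Ndufa8 (chr2:36049309-36049588, minus strand) and Uqcr11 (chr10:80406792-80407071, minus strand) stand for widely expressed subunits with an NRF1 core, Sdhb (chr4:140961021-140961300, plus strand) and Cox6b1 (chr7:30626085-30626364, minus strand) for those with an ETS site. Cox6b2 (chr7:4753065-4753344, minus strand) and Cox7a1 (chr7:30183921-30184200, plus strand) are the restricted complex IV forms that passed the filter and had a sequence in the table, and neither holds a marked motif.
Ndufa8: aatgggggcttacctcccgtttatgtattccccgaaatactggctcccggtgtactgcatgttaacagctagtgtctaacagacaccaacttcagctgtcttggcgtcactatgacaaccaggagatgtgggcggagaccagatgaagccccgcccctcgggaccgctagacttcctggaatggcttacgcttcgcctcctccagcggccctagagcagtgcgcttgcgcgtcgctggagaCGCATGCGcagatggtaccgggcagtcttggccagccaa
Uqcr11: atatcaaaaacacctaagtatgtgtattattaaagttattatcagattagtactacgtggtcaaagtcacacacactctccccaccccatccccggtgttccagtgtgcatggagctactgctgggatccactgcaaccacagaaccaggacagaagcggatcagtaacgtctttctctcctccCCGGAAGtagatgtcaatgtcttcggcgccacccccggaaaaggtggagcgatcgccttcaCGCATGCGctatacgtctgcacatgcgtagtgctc
Sdhb: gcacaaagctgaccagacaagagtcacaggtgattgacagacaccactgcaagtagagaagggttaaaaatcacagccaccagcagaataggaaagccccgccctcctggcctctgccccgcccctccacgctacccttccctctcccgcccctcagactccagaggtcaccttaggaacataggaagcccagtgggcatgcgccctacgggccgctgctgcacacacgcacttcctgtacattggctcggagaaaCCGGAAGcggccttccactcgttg
Cox6b1: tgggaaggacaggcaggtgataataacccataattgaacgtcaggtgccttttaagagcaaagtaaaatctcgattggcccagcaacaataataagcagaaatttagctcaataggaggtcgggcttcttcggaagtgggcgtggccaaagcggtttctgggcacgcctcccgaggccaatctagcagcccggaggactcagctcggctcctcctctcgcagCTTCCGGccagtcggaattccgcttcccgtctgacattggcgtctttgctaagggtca
Cox6b2: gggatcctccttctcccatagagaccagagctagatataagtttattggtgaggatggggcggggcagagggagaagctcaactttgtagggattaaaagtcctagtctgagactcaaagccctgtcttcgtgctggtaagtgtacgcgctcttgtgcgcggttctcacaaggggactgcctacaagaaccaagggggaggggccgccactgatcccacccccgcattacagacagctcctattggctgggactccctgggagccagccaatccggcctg
Cox7a1: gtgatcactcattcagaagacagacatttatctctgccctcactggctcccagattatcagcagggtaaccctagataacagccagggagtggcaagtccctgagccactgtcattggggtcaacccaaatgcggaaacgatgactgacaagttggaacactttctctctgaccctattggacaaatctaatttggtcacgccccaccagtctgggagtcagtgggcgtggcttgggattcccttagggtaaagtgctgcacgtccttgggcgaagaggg

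The same letters were searched on both strands in windows of 300 bases (250 before and 50 after the start), of which 72 of the 87 members that are not pseudogenes had 77. The NRF1 core was in 11 of the 77 member windows (14.3%) against 1.87% of all 32851 windows. The ETS site was in 19 (24.7%) against 8.86%, and the YY1 site AAGATGGC in 10 (13%) against 2.75%. The cyclic AMP element TGACGTCA was in 3 (3.90%) against 1.79% and the E-box CACGTG in 7 (9.09%) against 7.15%. Member windows held a median of 20 CpG dinucleotides against 7 in all windows. The restricted forms Cox6b2, Cox7a1, Cox7b2 and Cox8b held 2 to 10 CpG and none of the 5 motifs, which says only that those letters are not in these windows. A YY1 site can share its letters AAG with the end of an ETS site. These are matches of letters, not measured binding sites. Cox6a2, Cox4i2, Cox4i1, Uqcrq and Ndufb9 had no window.

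Stimulation raised the respiratory chain genes of all 5 complexes. In WT Th0 against WT naive cells, 53 of the 82 tested members were higher and 2 lower, beside 31.2% of all tested genes higher and 22.3% lower. The median change over the 82 tested members was 0.48 on the log2 scale and that over all tested genes 0.04. In this bulk RNA, more RNA per cell and more cells of a type cannot be told apart. The counts were 25 of 33 for complex I, 4 of 8 for its assembly factors, 3 of 4 for complex II, 5 of 7 for complex III, 6 of 14 for complex IV and 10 of 16 for complex V. Beside this, 10 of 11 tested proliferation genes rose, with a median of 4.96, and their part in the result was not tested.

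The largest rises were in accessory subunits of complex I. Ndufb9, an accessory subunit, measured 8.75, 8.88 and 8.72 in WT naive samples and 10.12, 10.19 and 10.11 in WT Th0 samples. All 3 stimulated samples lay above all 3 naive ones, and the rise was 1.36 (SE 0.09), or 2.57-fold (adjusted p = 1.28e-12). Ndufc2 rose by 1.11 (SE 0.11) and Ndufa8 by 1.07 (SE 0.12), and neither overlapped between the groups. Of the core subunits, which hold the flavin and iron-sulfur centres, Ndufs8 rose by 0.87 (SE 0.11) and Ndufv1, the NADH-binding subunit, by 0.59 (SE 0.10). Ndufs1, the largest iron-sulfur subunit, changed by 0.19 (SE 0.12) and was not called (adjusted p = 0.169). Among the assembly factors, which help to build complex I and leave it, Ndufaf1 rose by 0.95 (SE 0.19), Ndufaf3 by 0.85 (SE 0.12) and Ndufaf7 by 0.81 (SE 0.13). The change of Ndufaf8 was -0.10 (SE 0.18) and that of Ndufaf5 -0.23 (SE 0.14), neither of them called.

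Complex II split between its catalytic flavoprotein and the rest. Sdhb, the iron-sulfur subunit, measured 8.75, 8.76 and 8.64 in WT naive and 9.39, 9.45 and 9.37 in WT Th0 samples. The groups did not overlap, and the rise was 0.69 (SE 0.12) (adjusted p = 1.1e-05). The membrane anchors Sdhc and Sdhd rose by 0.61 (SE 0.11) and 0.65 (SE 0.14). Sdha, the flavoprotein that oxidises succinate, was at 10.20, 10.24 and 10.08 and then 10.31, 10.27 and 10.33, a change of 0.13 (SE 0.08) that was not called (adjusted p = 0.196).

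In complex III the small subunits Uqcr11 and Uqcrb rose by 0.91 (SE 0.15) and 0.80 (SE 0.14) and the core protein Uqcrc1 by 0.44 (SE 0.08). Uqcrfs1, the Rieske iron-sulfur protein, changed by 0.16 (SE 0.21) and was not called. In complex IV, Cox5a rose by 0.88 (SE 0.20), Cox6b1 by 0.78 (SE 0.11) and Cox7a2 by 0.72 (SE 0.15), while the restricted forms Cox4i2, Cox6a2 and Cox6b2 changed by 0.01, -0.20 and -0.06 and were not called. Cox7a2l, known for joining complexes III and IV into supercomplexes, was the only complex IV member called lower. It measured 7.41, 7.53 and 7.44 in naive and 7.13, 6.83 and 7.03 in Th0 samples, a change of -0.47 (SE 0.16) (adjusted p = 0.0132, and 0.0723 without WT Th0 sample 2).

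In complex V, the catalytic beta subunit Atp5b measured 11.93, 12.08 and 11.98 in naive and 12.41, 12.41 and 12.36 in Th0 samples. The groups did not overlap, and the rise was 0.39 (SE 0.08), smaller than that of the small subunit Atp5md at 0.71 (SE 0.10). The alpha subunit Atp5a1 changed by 0.12 (SE 0.11) and was not called. Of the 3 genes for the same c-ring protein, Atp5g2 and Atp5g3 rose by 0.41 (SE 0.11) and 0.46 (SE 0.12) and Atp5g1 lay below the filter. Atp5j2, a membrane subunit, fell by 0.52 (SE 0.20), a call that was lost in 5 of the 6 fits that left out 1 sample (adjusted p up to 0.131).

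**Figure D1:**
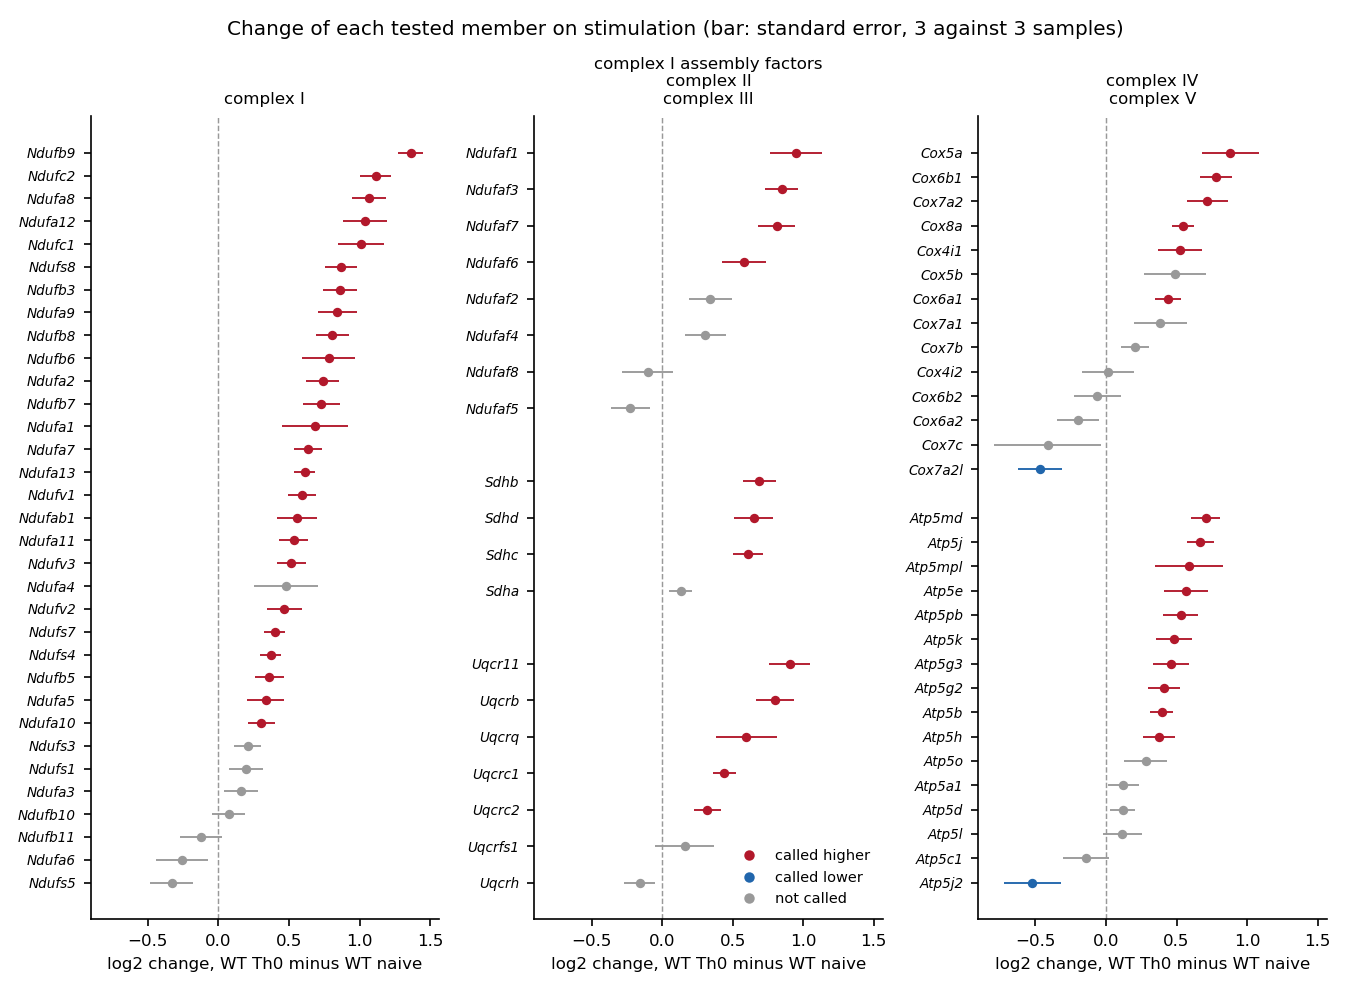
Log2 change of each tested member between WT Th0 and WT naive samples (3 against 3), with the standard error of the fit as a bar, by complex and in order of size. Most points lie right of 0, led by Ndufb9 at 1.36, and the 2 called lower are Cox7a2l and Atp5j2.

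Among the 6 WT groups, 30 of the 82 tested members had their highest mean in Th0, 18 in Th17, 15 in Th1, 8 in naive, 6 in Treg and 5 in Th2 cells. The lowest mean was in naive cells for 51, in Th2 for 11 and in Treg for 9. The same counts over all tested genes are not given here, so these are no result about the members. As a description by sample, each member was set against its WT naive mean and the median taken over the tested members. The 3 WT Th0 samples gave 0.53, 0.47 and 0.45, the WT Th2 samples 0.35, 0.22 and 0.17 and the WT Treg samples 0.36, 0.03 and 0.07. WT Treg sample 1 lay well above the other two of its group, and the Th2 samples lay below all Th0 samples.

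**Figure D2:**
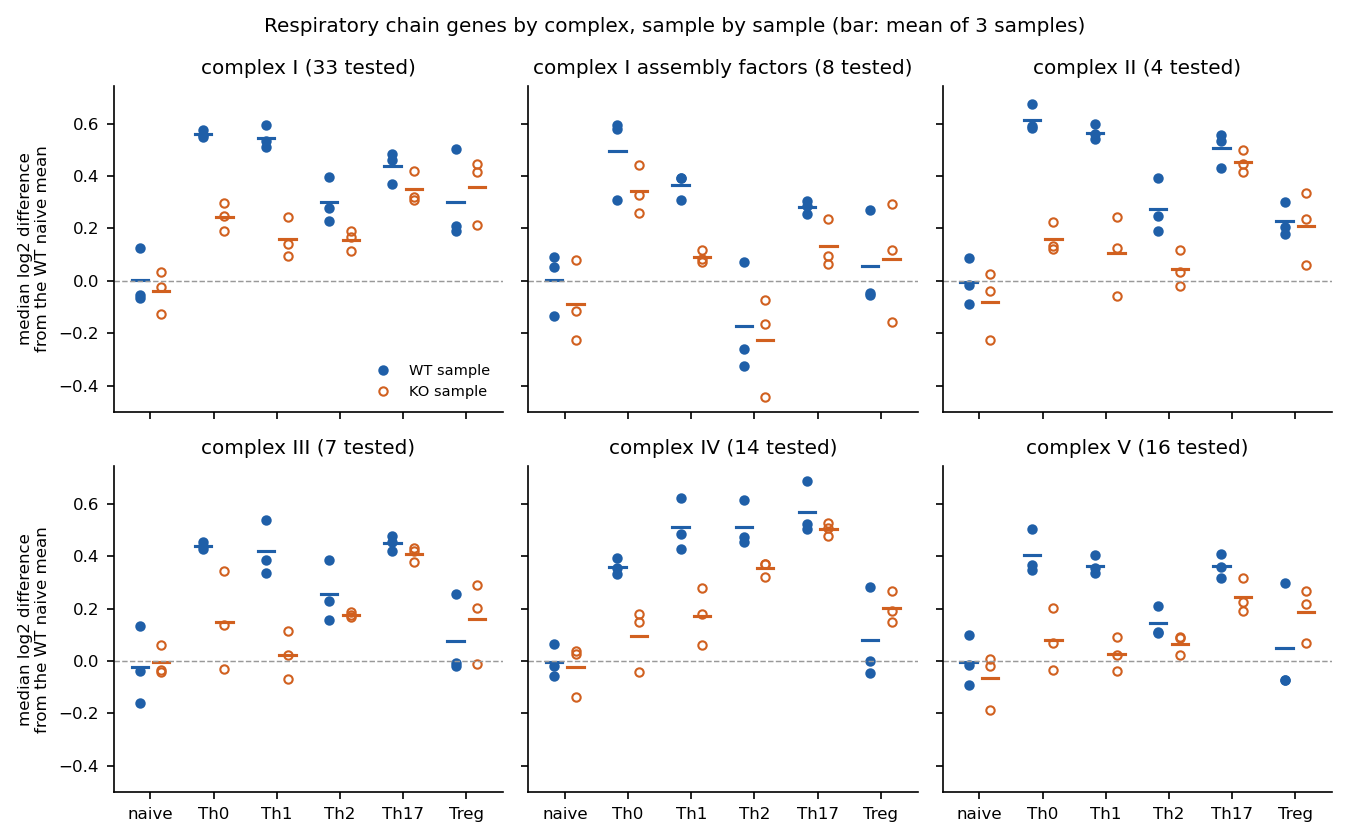
Median log2 difference of the tested members of each complex from their WT naive mean, 1 point a sample (filled WT, open KO) and a bar at the mean of 3, for naive cells and the 5 stimulated conditions. In complex I the WT Th0 mean is 0.56 and the KO Th0 mean 0.24, and for the complex I assembly factors the WT Th0 mean is 0.49 and the WT Th2 mean -0.17.

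Few chain genes differed between Th1 and Th0 cells. Of 82 tested members, 2 were higher and none lower in WT Th1 against WT Th0, beside 5.43% and 5.4% of all tested genes, and by an unadjusted limma p under 0.05 there were 3 and 3. The 2 members in this count were the restricted complex IV forms Cox7a1 and Cox6b2. Cox7a1 measured 4.46, 5.0 and 4.62 in Th0 and 5.53, 5.04 and 5.31 in Th1 samples, a difference of 0.60 with no overlap, given without a test because the WT Th1 samples helped it pass the filter. Cox6b2 rose by 0.59 (SE 0.17) (adjusted p = 0.0206). The Cox6b2 call did not hold in every fit that left out 1 sample. Without WT Th1 sample 1 or WT Th0 sample 3 no member was called, and without WT Th1 sample 3 or WT Th0 sample 1 there was 1. Among central subunits Ndufv1 changed by -0.13, Sdhb by -0.02, Uqcrc1 by -0.08, Cox4i1 by 0.13 and Atp5b by 0.01, none of them called.

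In Th2 cells 28 of the 82 tested chain genes were lower than in Th0 cells, among them 5 of the 8 assembly factors. In WT Th2 against WT Th0 cells, 28 members were lower and 5 higher, beside 22.9% and 17.2% of all tested genes. The median was -0.23 over tested members and -0.06 over all tested genes. The median change of the 8 assembly factors was -0.56. The medians of complexes I to V, over all their members tested or not, lay between -0.26 (complex I) and -0.04 (complex IV). Ndufaf6 measured 7.39, 7.13 and 7.03 in Th0 and 6.69, 6.14 and 6.17 in Th2 samples, a fall of 0.85 (SE 0.16, adjusted p = 6.53e-05) with no overlap. Ndufaf4 and Ndufaf7 changed by -0.77 (SE 0.14) and -0.75 (SE 0.13).

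Complex I was lower in 15 of 33 tested genes in Th2 cells, led by Ndufa5 at -0.71 (SE 0.13) and Ndufb8 at -0.61 (SE 0.12), and with the core subunits Ndufv1 at -0.46 (SE 0.10) and Ndufs8 at -0.44 (SE 0.11) among them. Sdhb, at 8.96, 8.70 and 8.57 in Th2 samples, overlapped its naive values and was 0.66 (SE 0.12) below Th0. The other 3 complex II members were not called. Complex III had 2 lower (Uqcr11 -0.50, Uqcrc1 -0.24), complex IV 1 (Cox6a1 -0.27) and complex V 4, led by Atp5k at -0.52 (SE 0.13). Atp5g3, 1 of the c-ring genes, changed by -0.50 (SE 0.12) and Atp5g2, another, by -0.10 (SE 0.11) without a call. Cox5a (0.06), Cox4i1 (0.08), Uqcrfs1 (-0.09) and Atp5a1 (-0.13) were not called either. Against this direction Ndufv3 and Ndufa6, both of complex I, rose by 0.54 (SE 0.10) and 0.57 (SE 0.18).

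The largest rise of any member in Th2 cells was in Cox6a2, the form of subunit 6a known from heart and skeletal muscle. It measured 5.52, 5.68 and 5.44 in WT Th0 and 7.47, 7.38 and 7.30 in WT Th2 samples, and the Th2 samples lay above every other sample of either genotype. The rise was 1.83 (SE 0.15), or 3.57-fold (adjusted p = 5.3e-11), while the widely expressed form Cox6a1 changed by -0.27 (SE 0.09). Cox6b2, a form known from testis, measured 5.43, 5.48 and 4.88 and 6.39, 7.05 and 6.89, a rise of 1.51 (SE 0.17) or 2.86-fold without overlap. Its counterpart Cox6b1 changed by -0.14 (SE 0.11) and was not called. Cox4i2, a form known from lung, rose by 0.46 (SE 0.18) (adjusted p = 0.0447), a call kept in 2 of 6 fits that left out 1 sample. Of 6 myeloid markers, Adgre1 and Cst3 were higher in Th2 cells (by 3.74 and 0.45), while Itgam was lower (a change of -0.56). The mean level of all 6 was 5.81 to 6.03 in Th2 against 5.21 to 5.41 in Th0 samples. Csf1r was at most 5.20 in every sample, and the part of these markers in the Cox6a2 result was not tested.

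In Th17 cells the restricted complex IV forms Cox4i2 and Cox6b2 rose and Cox7a1 was at its highest, while the share of members called either way was below that of all genes. WT Th17 against WT Th0 had 6 members higher and 12 lower, beside 20.3% and 18.8% of all tested genes. The medians were -0.06 for tested members and -0.04 for all tested genes. With each sample centred on its median the split was 4 higher and 17 lower. Leaving out WT Th0 sample 1 left 9 calls, and leaving out WT Th17 sample 2 left 8.

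Cox7a1, the heart and muscle form of subunit 7a, measured 4.46, 5.0 and 4.62 in WT Th0 and 6.88, 6.59 and 6.72 in WT Th17 samples. All Th17 samples lay above all others of the WT genotype, and the means differed by 2.04. No test or fold is given, since the Th17 samples carried it past the filter and the Th0 values lie below 5.26. Cox7a2 changed by 0.10 (SE 0.15) and was not called. Cox4i2 measured 6.90, 6.70 and 6.57 against 5.73, 5.87 and 5.35, a rise of 1.07 (SE 0.18) without overlap, and Cox4i1 changed by 0.09 (SE 0.15) and was not called. Cox6b2 rose by 1.11 (SE 0.17), and Cox6a2, high in Th2 cells, was at 5.27, 5.20 and 5.39 in Th17 samples. Cox8b, Cox8c and Cox7b2 did not pass the filter. Of the members that were lower, Ndufa5 at -0.66 (SE 0.13) and Ndufaf4 at -0.52 (SE 0.14) led, both lower in Th2 cells as well, in a comparison that shares the WT Th0 samples. The core subunits Ndufs8 and Ndufs7 changed by -0.37 (SE 0.11) and -0.33 (SE 0.07) and Uqcrc1 by -0.21 (SE 0.08). No complex II member was called, Sdhb being at -0.23 (SE 0.12), and in complex V Atp5d rose by 0.28 (SE 0.09) while Atp5b changed by -0.03 without a call. Of 4 NK markers Klrd1 was higher in Th17 cells (by 3.68), the mean level of all 4 being 5.42 to 5.59 in Th17 against 4.60 to 4.77 in Th0 samples. Ncr1 was at most 4.93 in every sample, and the part of these markers in the Th17 results was not tested.

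**Figure D3:**
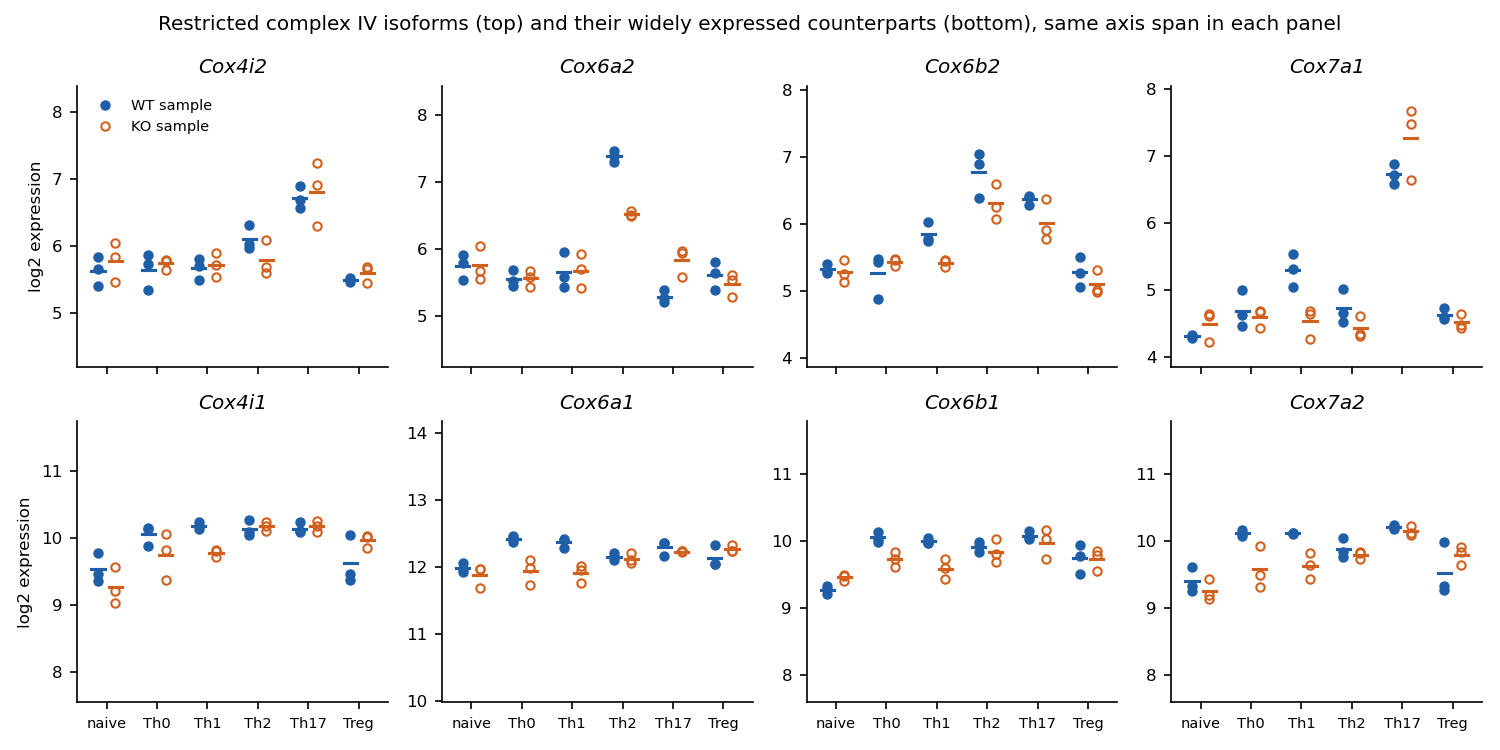
Log2 expression of 4 restricted complex IV forms (top) and their widely expressed counterparts (bottom), 1 point a sample (filled WT, open KO), bar at the mean of 3, each panel spanning 4.2 log2 units. Cox6a2 is high in Th2, Cox7a1 and Cox4i2 in Th17, and Cox6b2 in both, whereas each counterpart's values lie within 1.5 of each other.

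Chain genes of all 5 complexes were lower in Treg than in Th0 cells. WT Treg against WT Th0 had 40 of 82 members lower and none higher, beside 22.4% and 19.2% of all tested genes. By an unadjusted limma p under 0.05 there were 44 lower and none higher, and quantile normalization gave 34 lower and 1 higher. The median over tested members was -0.25 and over all tested genes 0.00. Complex I had 17 of 33 lower, complex II 2 of 4, complex III 3 of 7, complex IV 6 of 14 and complex V 9 of 16. The count fell to 19 without WT Treg sample 2 or without sample 3, to 23 without WT Th0 sample 1, and rose to 48 without WT Treg sample 1.

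Ndufc2 measured 11.63, 11.62 and 11.56 in WT Th0 and 11.13, 10.72 and 10.73 in WT Treg samples. Every Treg sample lay below every Th0 sample, sample 1 least so, and the change was -0.74 (SE 0.11) (adjusted p = 3.95e-06). Sdhb was at 8.78, 8.85 and 8.71, a change of -0.62 (SE 0.12), while Sdha was at 10.36, 10.45 and 10.48 and changed by 0.13 (SE 0.08) without a call. Uqcrq, a small complex III subunit, changed by -0.81 (SE 0.22), and Uqcrc1 by -0.40 (SE 0.08). Uqcrfs1 changed by -0.46 (SE 0.21) and was not called. In complex IV Cox5b changed by -0.61 (SE 0.22), Cox4i1 by -0.43 (SE 0.15) and Cox8a by -0.24 (SE 0.08), while Cox7a2l, which fell on stimulation, changed by 0.21 (SE 0.16) without a call. In complex V Atp5mpl changed by -0.74 (SE 0.24) with overlapping groups, since WT Treg sample 1 measured 8.56, above all Th0 samples, and the other two 7.11 and 7.39. The catalytic Atp5b changed by -0.24 (SE 0.08) and the c-ring genes Atp5g2 and Atp5g3 by -0.35 (SE 0.11) and -0.38 (SE 0.12). In all, 10 of the 40 called members had overlapping groups. Of 23 called members checked one by one, 6 were called whichever sample was left out.

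Other metabolic genes moved beside them. All 11 proliferation genes were lower in WT Treg than in WT Th0 cells (median -2.19), their mean level being 8.32 to 9.06 against 10.69 to 10.75, and 14 of 16 glycolysis genes were lower (median -1.02). The part of proliferation in the lower chain genes was not tested. In WT Th2 and WT Th17 against WT Th0 cells, 14 and 12 of the 16 glycolysis genes were higher, at medians of 0.78 and 0.77.

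No chain gene passed the test between genotypes in naive cells. In KO against WT naive cells no member was called, beside 0.948% of all tested genes higher and 0.199% lower. By an unadjusted limma p under 0.05, 1 member was higher and 1 lower. The median over tested members was -0.05. Sdhb measured 8.75, 8.76 and 8.64 in WT and 8.69, 8.75 and 8.62 in KO naive samples, with overlap. Ndufc2 changed by -0.03 (SE 0.11), Uqcrc1 by 0.01 (SE 0.08), Cox4i1 by -0.27 (SE 0.15) and Atp5b by 0.00 (SE 0.08). The proliferation genes were not called either, at a median of -0.12.

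Genes of all 5 complexes were lower in KO than in WT Th0 cells. The test called 40 of 82 members lower and 1 higher, beside 19.6% and 16.8% of all tested genes. The median was -0.27 over tested members and 0.00 over all tested genes. All 41 called members had groups that did not overlap, which passing the test with 3 samples a group makes likely. No share over all genes is given for this, so it is no separate support. Complex I had 20 of 33 lower, its assembly factors 1 of 8, complex II 3 of 4, complex III 2 of 7, complex IV 6 of 14 and complex V 8 of 16. Markers of other cell types moved in the same comparison: Klrd1 (NK cells) was higher by 1.38, and Cd8b1 (CD8 T cells), Cd79b (B cells) and Cst3 (myeloid cells) changed by -0.59, -0.50 and -0.39. The mean level of the 4 NK markers was 5.13 to 5.21 in KO and 4.60 to 4.77 in WT samples, and the part of these markers was not tested. Leaving out KO Th0 sample 1 left 30 lower, and leaving out KO Th0 sample 1 and KO Th1 sample 1 left 33. Of 24 called members checked one by one, 14 were called whichever sample was left out.

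Ndufc2 measured 11.63, 11.62 and 11.56 in WT Th0 and 10.80, 11.11 and 10.82 in KO Th0 samples, a change of -0.69 (SE 0.11) (adjusted p = 1.95e-05). All KO samples lay more than 0.4 below the lowest WT sample. The core subunits Ndufs8, Ndufv1 and Ndufv2 changed by -0.51 (SE 0.11), -0.37 (SE 0.10) and -0.44 (SE 0.12), and Ndufs1 by -0.18 (SE 0.12) without a call. Sdhb measured 8.54, 8.93 and 8.95 in KO Th0 samples, close to the 8.75, 8.76 and 8.64 of WT naive samples, and was 0.60 (SE 0.12) below WT Th0. Sdhc and Sdhd were lower by 0.42 and 0.44, and Sdha changed by 0.02 (SE 0.08).

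Uqcrq showed the largest fall of any member, from 7.31, 7.14 and 7.26 to 6.62, 6.65 and 5.89, a change of -0.84 (SE 0.22) (adjusted p = 0.00275). KO sample 3 was the lowest and the groups did not overlap. Uqcrc1 was tighter, at 10.38, 10.39 and 10.40 in WT and 9.87, 10.01 and 9.86 in KO samples, a change of -0.48 (SE 0.08) (adjusted p = 3.12e-05). In complex IV Cox5a changed by -0.74 (SE 0.20), Cox5b by -0.64 (SE 0.22) and Cox6a1 by -0.48 (SE 0.09), while Cox4i1 changed by -0.30 (SE 0.15) and was not called. In complex V the catalytic subunits Atp5b and Atp5a1 changed by -0.40 (SE 0.08) and -0.31 (SE 0.11), and the c-ring genes Atp5g2 and Atp5g3 by -0.39 (SE 0.11) and -0.40 (SE 0.12).

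KO Th1 cells had the same direction, with 43 members lower and 1 higher, beside 23.7% and 17% of all tested genes. The median was -0.29 over tested members against -0.03 over all tested genes. The KO and WT samples of Th1 are not those of Th0. Of the 43 members lower in KO Th1, 35 were lower in KO Th0 too, which is 81.4% of the former and 87.5% of the latter. The same overlap over all tested genes is not given here, so these shares are no result about the members. Samples of KO Th0 and KO Th1 with the same number deviated together (correlations of 0.70, 0.60 and 0.51), so the 2 comparisons may not be independent. The counts were 19 of 33 for complex I, 3 of 4 for complex II, 4 of 7 for complex III, 8 of 14 for complex IV and 7 of 16 for complex V. Leaving out KO Th1 sample 1 left 31 lower, and leaving out KO Th0 sample 1 as well left 32.

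Uqcrq again led in KO Th1, at 7.48, 7.52 and 7.30 in WT and 6.38, 6.58 and 6.49 in KO samples, a change of -0.95 (SE 0.22) (adjusted p = 0.000889). The lowest WT sample lay 0.7 above the highest KO sample. Ndufa1 and Ndufb6, accessory subunits of complex I, changed by -0.91 (SE 0.23) and -0.88 (SE 0.19), and the core subunits Ndufs8 and Ndufv1 by -0.55 (SE 0.11) and -0.49 (SE 0.10). Sdhd changed by -0.65 (SE 0.14), Sdhb by -0.54 (SE 0.12) and Sdha by -0.10 (SE 0.08), the last without a call. In complex V Atp5b, Atp5a1 and Atp5g3 changed by -0.43 (SE 0.08), -0.41 (SE 0.11) and -0.47 (SE 0.12). Cox4i1, not called in Th0, changed by -0.40 (SE 0.15) (adjusted p = 0.038). Cox7a1 measured 4.27, 4.69 and 4.64 in KO Th1 samples, -0.76 from WT, and Cox6b2 5.44, 5.35 and 5.46, -0.43 (SE 0.17) from WT. Both stood out in WT Th1 against Th0 through the same 3 WT Th1 samples, and the Cox7a1 value is given without a test. The Cox6b2 comparison shares those samples, and its call was lost whichever sample was left out (adjusted p up to 0.17).

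**Figure D4:**
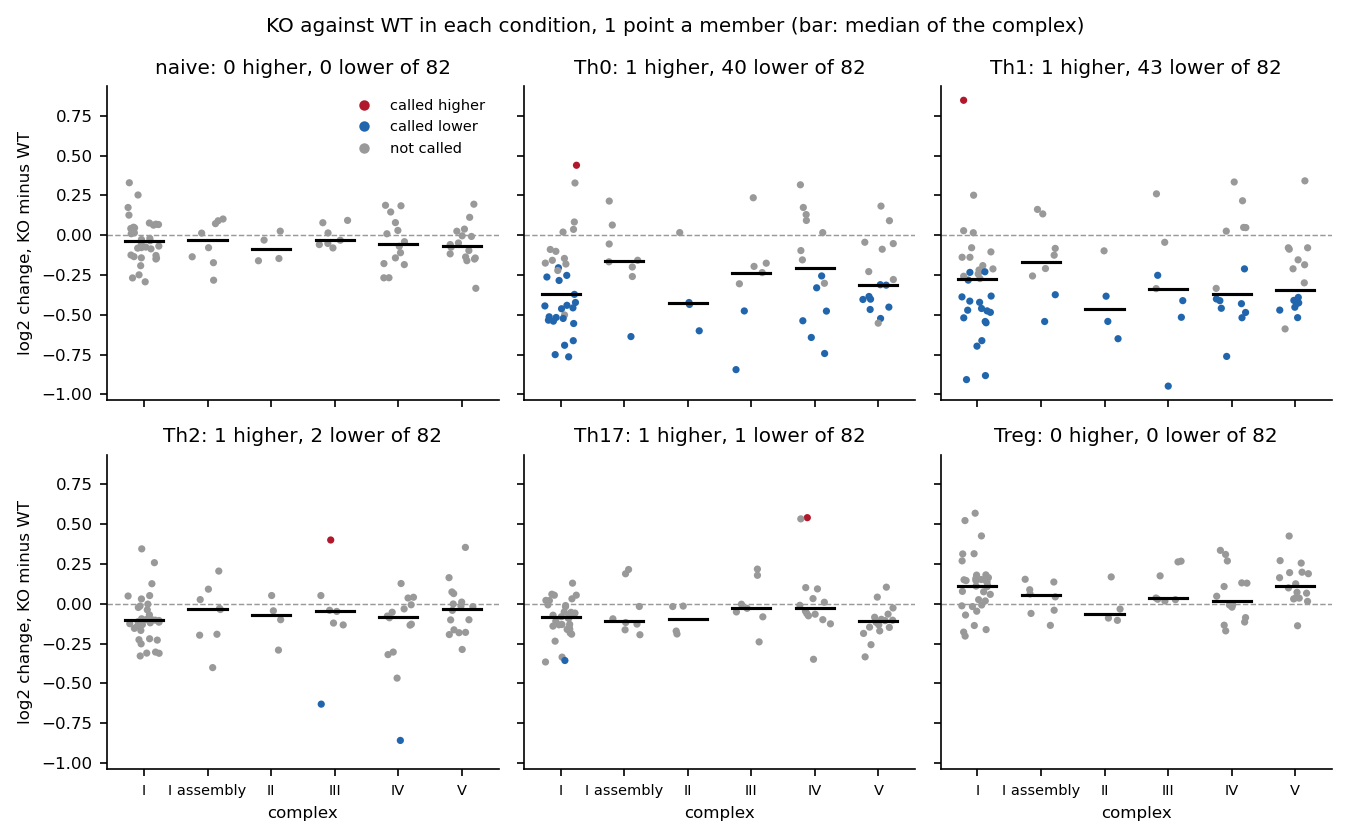
Log2 change of each tested member between KO and WT samples (3 against 3) in naive cells and the 5 stimulated conditions, 1 point a member by complex, with a bar at the median of the complex; horizontal spread within a column is for legibility. Most members lie below 0 in Th0 and Th1, with 40 and 43 called lower, while at most 3 were called in any of the other 4 conditions.

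Ndufs5, a complex I accessory subunit, was the only member called higher in KO Th0 and in KO Th1 cells. It measured 4.59, 4.97 and 4.74 in WT Th1 and 5.88, 5.43 and 5.53 in KO Th1 samples, a rise of 0.85 (SE 0.15) (adjusted p = 6.59e-05), and in Th0 the rise was 0.44 (SE 0.15). The groups did not overlap in either, but the Th0 call was lost without KO Th0 sample 1 or WT Th0 sample 3. These levels lie around the filter of 5.26. The row that carries Ndufs5 together with its pseudogene overlapped between genotypes, at 4.95 to 5.59 in WT Th1 and 5.43 to 5.75 in KO Th1 samples, so the rise is uncertain for the gene.

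All 11 proliferation genes were lower in KO Th0 and in KO Th1 cells, at medians of -2.01 and -1.50. Their mean level was 7.68 to 9.55 in KO Th0, 10.69 to 10.75 in WT Th0, 8.06 to 9.99 in KO Th1 and 10.72 to 10.76 in WT Th1 samples. Glycolysis genes were lower in 13 and 14 of 16, at medians of -0.95 and -1.02. The part of proliferation in the lower chain genes was not tested. Of the 53 members raised by stimulation in WT cells, 38 (71.7%) were lower in KO Th1 cells, which is 88.4% of those lower there. Of all 82 tested members 43 were lower in KO Th1. The same overlap over all tested genes is not given here, so these shares are no result about the members. The 2 comparisons share no sample, but same-numbered WT Th0 and WT Th1 samples deviated together (correlations of 0.39, 0.33 and 0.23). From KO naive to KO Th0 the median change of the 82 tested members was 0.18, with 64 positive, against 0.48 with 70 positive in WT, given here as levels without a test.

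In Th2, Th17 and Treg cells few members were called between genotypes. KO Th2 against WT Th2 had 1 higher and 2 lower, beside 7.51% and 8.88% of all tested genes. By an unadjusted limma p under 0.05 there were 2 higher and 11 lower. Of the 82 tested changes 62 were below 0, at a median of -0.10 beside -0.02 over all tested genes. The share of all tested genes below 0 is not given. Cox6a2 measured 7.47, 7.38 and 7.30 in WT Th2 and 6.49, 6.51 and 6.57 in KO Th2 samples, both tight and well apart. The change was -0.86 (SE 0.15), 1.81-fold lower (adjusted p = 0.000126), and it held whichever sample was left out. KO Th2 samples still lay above every WT Th0 sample. Cox6b2 measured 6.08, 6.26 and 6.59, -0.47 (SE 0.17) from WT, with overlapping groups and no call. Uqcrq changed by -0.63 (SE 0.22) (adjusted p = 0.0441, up to 0.229 on leaving out 1 sample), and Uqcrh, the hinge protein of complex III, rose by 0.40 (SE 0.11) (adjusted p = 0.00901). The count was 7 without KO Th2 sample 3, 5 without WT Th2 sample 1 and 1 without KO Th2 sample 1. The mean level of the 6 myeloid markers was 6.11 to 6.37 in KO Th2 against 5.81 to 6.03 in WT Th2 samples, and their part was not tested.

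KO Th17 against WT Th17 had 1 higher and 1 lower, beside 4.03% and 4.18% of all tested genes. By an unadjusted limma p under 0.05 there were 2 higher and 4 lower. Of the 82 tested changes 63 were below 0, at a median of -0.08 beside -0.02 over all tested genes. Here too the share of all tested genes below 0 is not given. Ndufs4, a complex I subunit, measured 10.69, 10.70 and 10.75 in WT and 10.36, 10.39 and 10.33 in KO samples. No value overlapped, and the change was -0.36 (SE 0.07) (adjusted p = 0.00195). Cox6a2 was here higher in KO, at 5.97, 5.93 and 5.58 against 5.27, 5.20 and 5.39, a change of 0.54 (SE 0.15) (adjusted p = 0.0194). That call was kept in 2 of the 6 fits that left out 1 sample; without WT Th17 sample 1 or 2, or KO Th17 sample 1 or 2, it was not made. Cox7a1 measured 7.67, 6.64 and 7.49 in KO samples, 0.53 from WT with overlapping groups, given without a test. Its KO Th0 levels were 4.67, 4.43 and 4.69, a difference built into its passing the filter. Cox4i2 measured 7.24, 6.92 and 6.30, 0.09 (SE 0.18) from WT, and was not called. These Cox4i2 values lay above its KO Th0 levels of 5.80, 5.79 and 5.64.

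In KO Treg against WT Treg cells limma called no member, beside 1.71% and 2.51% of all tested genes, and by an unadjusted p under 0.05 there were 7 higher and 1 lower. The median over tested members was 0.08, beside -0.03 over all tested genes, and 59 of 82 tested changes were above 0. The share of all tested genes above 0 is not given. WT Treg sample 1 weighed on this: without it 10 members were called higher and none lower. Ndufc2, for example, was at 11.07, 11.05 and 11.01 in KO Treg and 11.13, 10.72 and 10.73 in WT Treg samples. The 11 proliferation genes were not called, at a median of -0.11. The mean level of the 6 myeloid markers was 5.68 to 5.91 in KO and 5.25 to 5.42 in WT Treg samples.

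**Figure D5:**
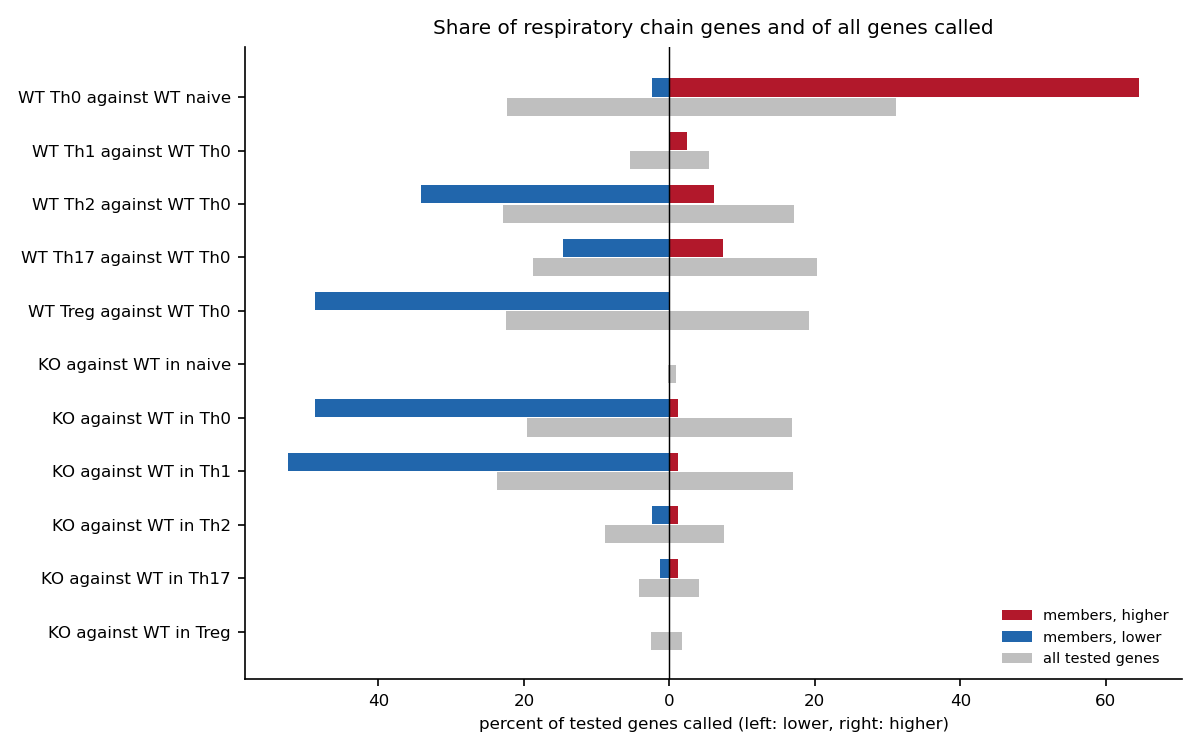
Percent of the 82 tested members called higher (red, right) or lower (blue, left) in 11 comparisons, with the percent of all 13082 tested genes called the same way in grey. Members exceed all genes on the higher side for WT Th0 against naive and on the lower side for WT Th2, WT Treg, KO Th0 and KO Th1.

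Averaged over the 6 conditions, 44 members were lower and 3 higher in KO than in WT cells, beside 27.5% and 18.9% of all tested genes. This mean combines the conditions described above and is no separate evidence. All 4 complex II members were lower, Sdhb by 0.22 (SE 0.05) and Sdha by 0.10 (SE 0.03). The largest fall was in Uqcrq at -0.37 (SE 0.09), and the members that were higher were Ndufs5 at 0.36 (SE 0.06), Ndufa6 at 0.18 (SE 0.07) and Uqcrh at 0.18 (SE 0.04). The Ndufa6 call was lost in 21 of 36 fits that left out 1 sample. Without KO Th0 sample 1 and KO Th1 sample 1, 38 members were called in place of 47.

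The dependence of the KO effect on the condition was tested as a difference of differences. Against naive cells, the Th0 effect was lower for 14 members and higher for none, beside 10.4% and 8.06% of all tested genes. The count is near the share of all tested genes called in either direction and is no result about the members. Ndufc1 led at -0.81 (SE 0.23), with Ndufa11 at -0.71 (SE 0.15), Ndufc2 at -0.66 (SE 0.16), Sdhb at -0.57 (SE 0.16) and Uqcrc1 at -0.49 (SE 0.11). Without KO Th0 sample 1 the count was 7, and without KO Th1 sample 1 as well it was 9. Of the 11 proliferation genes 8 were lower in the same comparison (median -1.67), and their part was not tested. Between Th1 and Th0 no member differed by limma, beside 0.138% and 0.451% of all tested genes, and by an unadjusted p under 0.05 there were 2 lower and none higher.

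The Treg effect was higher than the Th0 effect for 36 members and lower for none, beside 13.1% and 13.9% of all tested genes. Ndufa1 differed by 1.29 (SE 0.33), Uqcrq by 1.11 (SE 0.31), Cox5a by 0.88 (SE 0.29), Sdhb by 0.50 (SE 0.16) and Atp5b by 0.42 (SE 0.12). The count was 20 without WT Treg sample 3, 21 without WT Treg sample 2 and 23 without KO Treg sample 1. It was 26 without KO Th0 sample 1 and KO Th1 sample 1. Of 22 called members checked one by one, 9 were called whichever sample was left out. Of the proliferation genes 9 of 11 were higher in the same comparison (median 2.06), and their part was not tested. For Th17 against Th0 it was 7 higher and none lower, beside 7.41% and 8.22%, shares close to that of the members, with Ndufaf4 at 0.62 (SE 0.20), Ndufc2 at 0.61 (SE 0.16) and Sdhb at 0.59 (SE 0.16). The Th17 count was 11 without KO Th0 sample 2. These differences all use the Th0 samples of both genotypes and are not independent of each other.

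For Th2 against Th0 the KO effect was higher for 4 members (Ndufa11, Sdhb, Cox6a1 and Uqcrc1) and lower for Cox6a2, beside 4.97% and 5.22% of all tested genes. Both counts are near or below those shares, so they are no result about the members. The Cox6a2 difference was -0.87 (SE 0.21) (adjusted p = 0.00761) and held whichever of 12 samples was left out. The count of 5 was 2 without WT Th0 sample 2, WT Th2 sample 2 or 3, or KO Th0 sample 1, and 3 without WT Th0 sample 1, KO Th0 sample 3 or KO Th2 sample 3. It was 9 without WT Th2 sample 1, 12 without KO Th0 sample 2 and 3 without both KO Th0 sample 1 and KO Th1 sample 1. Since Cox6a2 was lower in KO Th2 and higher in KO Th17 cells, its KO effect was also compared between these 2 conditions, a comparison chosen after the values were seen. The effect in Th17 exceeded that in Th2 by 1.40 (SE 0.21, adjusted p = 5.85e-05), and Cox6a2 was the only one of 82 members called, with 2.38% of all tested genes higher and 2.08% lower.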

How the data were processed

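Per the labels, total RNA was extracted on micro columns with DNase digestion, labelled with biotin and hybridised to Affymetrix arrays scanned on a GeneTitan. The authors' log2 values came from RMA, run in R 3.1.0 with oligo, per the submitters' processing notes; further settings were not given in the sources used here. The deposited log2 values of 41345 probe sets (2.05 to 13.5, sample medians 5.18 to 5.35) were used without rescaling. RMA brings the samples to similar distributions, so a shift of most genes in 1 direction cannot be seen. Probe sets were named by the accompanying platform annotation (23521 had 1 symbol, 1814 several, 16010 none), and those with a single symbol were used.

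The means of the 12 groups were fitted in 1 model with limma 3.58.1 in R 4.3.3 (with data.table, version 1.17.8), with 24 residual degrees of freedom and 27.9 with the prior. From it 17 comparisons were taken, and 1 more was added after values were seen. P-values were adjusted by Benjamini-Hochberg within a comparison over 13082 genes. Named genes were central subunits, complex IV forms, c-ring genes and, in each complex, up to 3 called members with the largest rise and fall. The members and lists were chosen with earlier results of these data known. In simulated Th0 data, 4, 25, 45 and 50 of 50 genes made to differ by 0.25, 0.5, 1 and 2 were recovered. There were 7 false calls among 13082 genes. Only the genes made to differ were changed between the genotypes there, and noise was independent between samples. In the real KO Th0 comparison 16.8% of tested genes were higher and 19.6% lower, so the simulated figures do not describe it.

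Same-numbered samples were checked for pairing by the correlation of their deviations from the group means. All 3 correlations exceeded 0.1 between WT Th0 and WT Th1 (0.39, 0.33 and 0.23) and between WT Th0 and WT Th2 (0.25, 0.12 and 0.11), and between KO Th0 and KO Th1 (0.70, 0.60 and 0.51), which were not compared directly. It was not so for the other pairs of groups checked. The fit held no block. Alternatives were no filter, quantile normalization, median centring, cyclic loess, averaging all rows of a symbol, only the groups compared, replicate blocks, a term for sex by Xist, and leaving out samples.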

Additional observations from a re-analysis of the deposited data

Results flagged for a closer look

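In 4 tests of the difference of the TRIM28-loss effect between conditions some members were called, each by limma with Benjamini-Hochberg adjustment. Between Th0 and naive cells 14 members differed, all lower (17.1% of 82), beside 10.4% of all tested genes lower and 8.06% higher. Between Th2 and Th0 5 differed, 4 higher (4.88%) and 1 lower (1.22%), beside 4.97% and 5.22%. Between Th17 and Th0 7 differed, all higher (8.54%), beside 7.41% higher and 8.22% lower. Between Treg and Th0 36 differed, all higher (43.9%), beside 13.1% higher and 13.9% lower. The Th2 and Th17 counts are near or below the shares over all genes, and the 14 members are near the share called in either direction, so these 3 counts are no result about the members. All 4 differences use the same Th0 samples. The Treg difference combines a fall in KO Th0 cells with WT Treg cells that were themselves below WT Th0. No explanation was weighed.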

How the results depend on the processing

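No named member changed direction in any alternative in which it was called. Counts of called members moved by more than 1.5 times as follows. Th1 against Th0 (2) had 1 without the filter, 1 under quantile normalization and 1 with only the groups compared. With only the groups compared, Treg against Th0 (40) had 24, KO Th2 (3) had 1, and the differences of the KO effect from Th0 had 3 for Th2 (5), 14 for Th17 (7) and 20 for Treg (36). Cyclic loess gave 7 for KO Th2 and 13 for the Th17 difference, and quantile normalization 11 for the latter. Without both KO Th0 sample 1 and KO Th1 sample 1, the Th0 against naive difference (14) had 9 and the Th2 difference 3. The replicate block raised KO Th2 from 3 to 6 calls, the only count it moved so far, and with it Th1 and Th2 against Th0 had 2 and 35; of the pairs of groups checked, the numbers pair samples for those comparisons and for KO Th0 with KO Th1.

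Leaving out 1 sample gave 51 to 55 calls for Th0 against naive (55), 0 to 2 for Th1, 23 to 37 for Th2 (33), 8 to 16 for Th17 (18) and 19 to 48 for Treg. For KO against WT it gave 30 to 46 in Th0 (41), 32 to 42 in Th1 (44), 1 to 7 in Th2, 1 to 2 in Th17 (2), 0 to 10 in Treg (0) and 41 to 49 for the mean (47). For the differences it gave 7 to 18 (Th0 against naive), 2 to 12 (Th2), 5 to 11 (Th17) and 20 to 41 (Treg), and 0 throughout for Th1, as for KO naive cells. Of called members checked one by one, those called in every such fit were 24 of 28 for Th0 against naive and 15 of 20 for Th2. They were 6 of 14 for Th17, 6 of 23 for Treg, 14 of 24 for KO Th0 and 20 of 27 for KO Th1. Fewer samples lower the power of such fits.

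Median centring split Th1 into 1 higher and 1 lower, Th17 into 4 and 17 and KO Th2 into 1 and 1; quantile normalization split KO Th17 into 2 and 1, and cyclic loess KO Th2 into 1 and 6. Quantile normalization moved the median of all tested genes on stimulation from 0.04 to -0.07 and that of the tested members from 0.48 to 0.38. The mean of a gene's rows moved no count by over 1.5 times, and neither did the term for sex by Xist. Xist was high in 1 WT naive and 2 KO naive samples and in no stimulated sample. The term could therefore not change a difference between stimulated groups, and its outcome decides nothing for those comparisons. Naive groups were thus mixed by Xist and stimulated groups uniform, which bears on Th0 against naive. Signal near 5.26 limits Ndufs5, Cox6a2, Cox6b2, Cox7a1 and Atp5j2.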

Other observations

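Other mitochondrial genes, from lists written with earlier results known, are given as counts beside the members. On stimulation of WT cells 49 of 70 tested mitochondrial ribosomal proteins were higher and 2 lower, and 20 of 22 genes of protein import were higher, led by the chaperone Hspd1 at 1.3 and the import channel subunit Timm50 at 1.25. Of 17 genes of the tricarboxylic acid cycle and pyruvate dehydrogenase, 10 were higher, led by the fumarase gene Fh1 at 1.35, and 1 was lower (Ogdh, -0.35). Of 18 electron carrier genes 10 were higher, among them Etfb at 1.65 and cytochrome c1 (Cyc1) at 0.79. Cyc1 belongs to complex III, and the complex III counts above leave it out. The 13 genes of mitochondrial DNA maintenance and transcription were mixed, with 4 higher and 3 lower: Tefm rose by 1.35 and Polg2 changed by -1.84. Of all tested genes 31.2% were higher and 22.3% lower.

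In KO Th1 against WT Th1 cells 44 of the 70 mitochondrial ribosomal proteins, 17 of 22 import genes and 10 of 17 tricarboxylic acid cycle genes were lower, beside 23.7% of all tested genes. Hspd1 changed by -1.27, Timm50 by -1.26 and Fh1 by -1.03. Tfb1m, which methylates mitochondrial ribosomal RNA, changed by -1.18. The complex III assembly factors went apart, Uqcc2 at -1.09 and Uqcc3 at 0.69. In WT Th2 against WT Th0 cells 36 ribosomal proteins were lower and 1 higher, beside 22.9% and 17.2% of all tested genes, while Myc changed by -1.35 and Sco1, a copper chaperone of complex IV, rose by 1.08.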
